A study of Homo sapiens with 24 samples.

Results

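The replication-dependent histone genes were taken as every gene with a current symbol from H1-1 to H1-6 or beginning with H2AC, H2BC, H3C or H4C, with older HIST1 to HIST4 names accepted. RefSeq lists 72 such genes, and the arrays measured 55 of them, among 11940 genes in all. They comprised 6 genes for the linker histone H1 and 11 for H2A, 15 for H2B, 11 for H3 and 12 for H4, the core histones. One of the H3 genes, H3-4, a testis histone, was found by its older name alone. Of the 55 genes, 50 lie on chromosome 6 and 5 on chromosome 1.

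These genes supply the histones that package newly copied DNA, so their mRNA is made mainly in S phase, when NPAT drives their transcription. Their mRNA ends in a stem-loop that the protein SLBP binds, where other mRNAs carry a poly(A) tail. A number of them, H2BC12, H2BC21, H2BC5, H2AC6 and H1-2 among others, are known to yield polyadenylated mRNA as well. Labelling of RNA for such arrays usually starts at poly(A) tails. The labels name the maker's standard protocol and do not state the primer, and the share of the polyadenylated form in a level was not tested.

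The samples were 24 arrays of total RNA from A2780, a human ovarian cancer cell line, 12 from a line carrying pcDNA, the vector alone, and 12 from a line that expresses Rab25, a small GTPase of endosome recycling. Cells were starved of serum for 8 h. Starved cells gave 4 arrays per line, and EGF and IGF at 10 ng/ml, TGF beta at 5 ng/ml and fetal bovine serum (FBS) at 5% gave 2 arrays per line each, spread evenly over experiments 1 and 2. Exposure was 8 h in the first experiment and 24 h in the other by the treatment protocol, but 24 h in either by the source names. Every sample, controls included, carried a vector and had been starved, and each line was 1 transfected line, so Rab25 and any other difference between the lines cannot be told apart. Nothing in the labels says how the cultures were kept apart beyond calling the samples independent, so p-values measure the spread between these arrays.

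The RAB25 probe set averaged 5.26 ± 0.25 (log2, SD, n = 12) in the pcDNA line. It averaged 8.65 ± 0.30 (log2, SD, n = 12) in the Rab25 line, with no overlap. The median log2 signal of an array was between 7.03 and 7.35. Between starved arrays of 1 line, the SD of gene differences was 0.144 to 0.173 within an experiment and 0.308 to 0.432 across experiments. Of the epithelial and ovarian markers, PAX8 (11.83), KRT8 (12.73) and KRT18 (13.98) were high on the 22 arrays other than Rab25 FBS, and EPCAM (5.11), MUC16 (4.94) and CDH1 (5.49) were low. Both Rab25 FBS arrays stood apart. All 7 macrophage and leukocyte markers were above every other array there, with a summed log2 signal of 9.07 to 10.36 against 8.06 to 8.24, as were 4 of 8 fibroblast markers (13.07 to 14.21 against 12.05 to 12.75), 2 of 7 breast epithelium markers (10.02 to 10.39 against 8.70 to 9.16), and 1 each of 8 adipocyte (9.11 to 10.86 against 8.60 to 8.98), 5 blood (7.93 to 8.21 against 7.57 to 7.82) and 8 epithelial and ovarian markers (14.87 to 14.95 against 14.31 to 14.97). The part of these other cells in the results was not tested, and results that rest on the Rab25 FBS arrays are given with and without them.

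RefSeq promoters, of build GRCh38.p14, were found for 51 of the 55 genes, and the 250 bases before each start were searched on both strands. The windows below are printed because they precede genes that differed between the lines, alone or as neighbours. Capitals mark every match to the octamer ATTTGCAT (reverse ATGCAAAT), to CCAAT (reverse ATTGG), to TATAAA (reverse TTTATA) and to the H1 box AAACACA (reverse TGTGTTT), where matches may overlap. The first window is the whole of the 245 bases between the head-to-head starts of H2BC4 and H2AC6, on the strand of H2AC6 (chr6:26123927-26124171, plus strand). The others are H1-2 (chr6:26056471-26056720, minus strand), H2BC5 (chr6:26157871-26158120, plus strand), H2BC12 (chr6:27146859-27147108, minus strand) and H4C11 (chr6:27823842-27824091, plus strand), each 5′ to 3′ up to the start.
H2AC6-H2BC4: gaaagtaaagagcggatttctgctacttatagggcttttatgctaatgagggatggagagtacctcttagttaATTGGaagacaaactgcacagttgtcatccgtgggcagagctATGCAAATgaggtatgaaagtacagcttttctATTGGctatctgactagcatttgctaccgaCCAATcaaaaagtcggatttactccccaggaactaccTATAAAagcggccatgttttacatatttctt
H1-2: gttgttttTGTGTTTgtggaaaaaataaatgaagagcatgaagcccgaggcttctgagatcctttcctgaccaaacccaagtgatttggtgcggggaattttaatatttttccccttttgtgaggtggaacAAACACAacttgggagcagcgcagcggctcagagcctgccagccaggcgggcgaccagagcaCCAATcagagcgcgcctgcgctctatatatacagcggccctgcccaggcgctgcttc
H2BC5: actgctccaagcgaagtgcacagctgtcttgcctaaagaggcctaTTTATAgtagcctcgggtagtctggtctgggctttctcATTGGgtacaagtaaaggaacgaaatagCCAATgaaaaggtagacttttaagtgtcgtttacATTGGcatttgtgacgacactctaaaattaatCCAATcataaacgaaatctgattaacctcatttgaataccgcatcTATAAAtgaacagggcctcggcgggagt
H2BC12: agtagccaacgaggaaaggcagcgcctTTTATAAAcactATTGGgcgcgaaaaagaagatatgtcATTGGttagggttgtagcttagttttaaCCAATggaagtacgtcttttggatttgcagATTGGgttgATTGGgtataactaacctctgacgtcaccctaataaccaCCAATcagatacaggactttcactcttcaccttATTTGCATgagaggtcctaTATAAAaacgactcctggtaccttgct
H4C11: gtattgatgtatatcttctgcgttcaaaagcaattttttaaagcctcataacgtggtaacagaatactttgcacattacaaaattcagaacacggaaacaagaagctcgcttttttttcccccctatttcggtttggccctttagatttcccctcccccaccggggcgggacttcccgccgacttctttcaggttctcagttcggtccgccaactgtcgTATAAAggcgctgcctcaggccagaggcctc

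The octamer was found in 20 of the 51 promoters and in 1.66% of all 27305 promoters. It was in 12 of 15 H2B and 7 of 11 H2A promoters, in 1 of 9 H3 promoters, and in 0 of 6 H1 and 0 of 10 H4 promoters. CCAAT was in 44 of the 51 against 33.04% of all promoters, including all 15 H2B promoters and 3 of 10 H4 promoters. TATAAA was in 33 of the 51 against 11.13% of all. The H1 box was in all 6 H1 promoters and in 0 of the other histone families, against 4.95% of all promoters. Of the H2B genes described below as lower in Rab25 cells, H2BC5 has no octamer in its window and H2BC4, H2BC6, H2BC8, H2BC9, H2BC12 and H2BC21 each have it. A match describes letters in a window and not a bound site.

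Most of the histone genes gave a low signal. The mean over all arrays was under 6 on the log2 scale for 38 of the 55, and 44 lay under 6.79, the level that 40% of all genes lie under. The 11 above that level were, from the lowest, H4C11 (7.04), H2BC9 (7.09), H1-2 (7.30), H2BC6 (7.63), H2AC25 (7.78), H2BC21 (8.42), H2BC5 (9.35), H2AC6 (9.48), H2AC18 (10.43), H4C3 (11.08) and H2BC12 (11.57). These are levels of different probe sets and say nothing of which mRNA was more abundant. In RefSeq 3 of the 11 (H2BC12, H2BC21 and H2BC5) span over 1000 bases, as do 3 of the other 44 (H2BC4, H3C4 and H3C6). For the dim genes a missing call is no sign of equal expression.

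The lines were compared over the 5 conditions together. Of the 55 histone genes 11 were lower in Rab25 cells and 0 were higher (limma, Benjamini-Hochberg adjusted p under 0.05 over all genes), against a background of 15.5% lower and 9.14% higher among all genes, 24.7% in either direction. The 20.0% of histone genes that were lower is near that background. After quantile normalization the genes called lower fell from 62.94% to 50.76% of all calls, and after centring to 45.38%. Among all 11940 genes 1853 were lower, then 1473 after quantile normalization and 1258 after centring. Histone genes called lower fell as well, from 11 to 9 and 8. Genes called higher numbered 1091, 1429 and 1514 in the same order, with 0 histone genes each time. The median log2 difference was -0.07 for the histone genes and -0.01 for all genes. The 11 were H1-2 of the linker histones, H2AC6 of the H2A genes, H2BC4, H2BC5, H2BC6, H2BC8, H2BC9, H2BC12 and H2BC21 of the H2B genes, H3C8 and H4C11. H2B thus held 7 of the 11, out of 15 measured, and H1, H2A, H3 and H4 held 1 each, out of 6, 11, 11 and 12. As a description, 8 of the 11 brighter genes were lower, against 22.28% of all genes above the same level, and 3 of the 44 dimmer ones, against 5.38% of all dimmer genes.

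**Figure D1:**
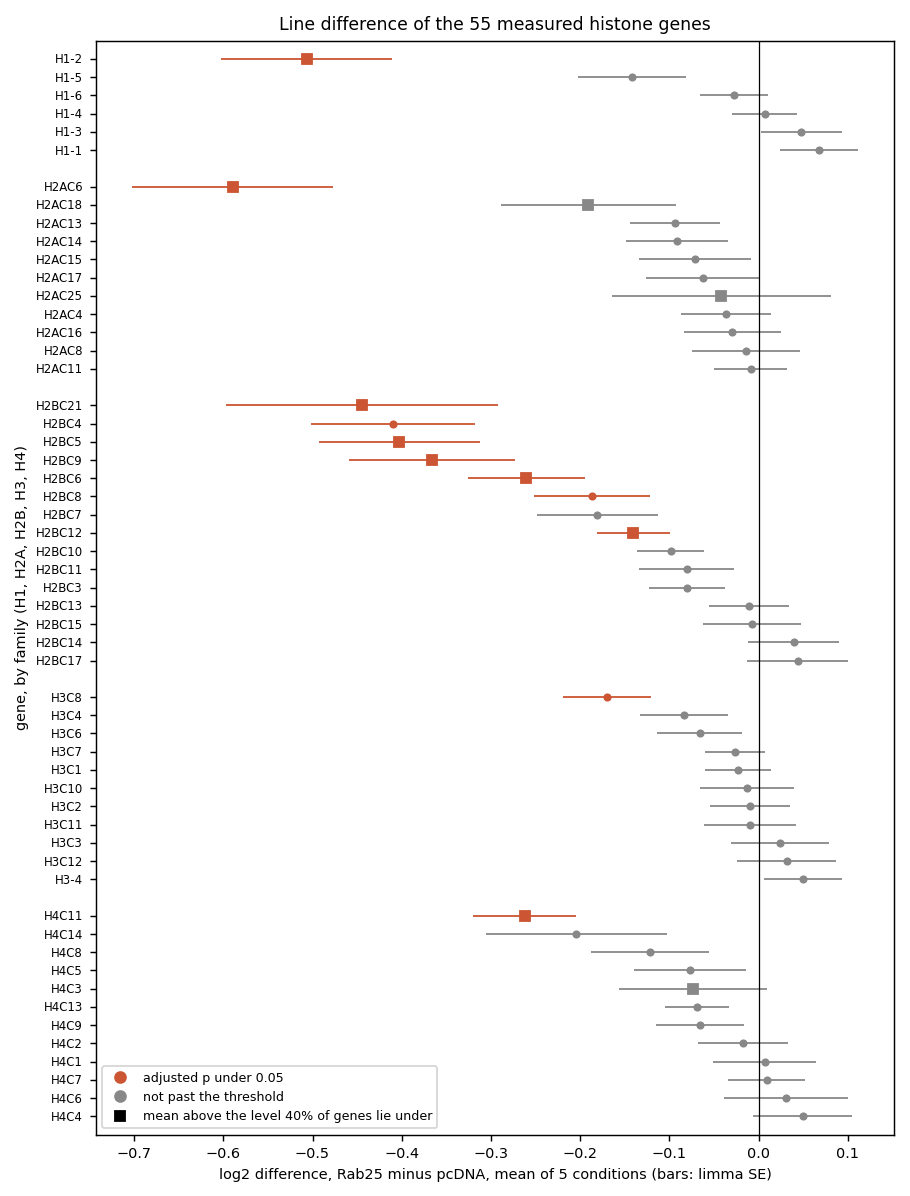
The log2 difference between the lines (Rab25 minus pcDNA, mean of the 5 conditions, horizontal axis) is plotted for each of the 55 histone genes, grouped by family, with limma's SE as bars; red marks an adjusted p under 0.05 and squares mark genes above the level that 40% of genes lie under. All 11 red points lie to the left of 0, between -0.59 and -0.14, and 7 of them are H2B genes.

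H2AC6, an H2A gene, was 1.51-fold lower in Rab25 cells (log2 difference -0.59, SE 0.11, limma adjusted p = 0.00089). Its 12 pcDNA arrays ran from 8.58 through a median of 9.87 to 10.13 on the log2 scale, and its 12 Rab25 arrays from 8.38 through 9.12 to 9.59. The ranges met only through pcDNA FBS array 1 at 8.58, since every other pcDNA array was at 9.63 or above and every Rab25 array at 9.59 or below.

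H1-2, a linker histone gene expressed in most cells, was 1.42-fold lower (log2 difference -0.51, SE 0.10, limma adjusted p = 0.00080). Its pcDNA arrays ran from 7.18 through 7.55 to 7.96 and its Rab25 arrays from 6.53 through 7.01 to 7.57. The groups overlapped: Rab25 arrays of FBS in experiment 1 (7.57) and of IGF (7.51) and starved cells (7.38) in experiment 2 lay above the pcDNA arrays of TGF beta (7.18), IGF (7.36) and EGF (7.36) in experiment 1.

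H2BC4, which shares its promoter with H2AC6, differed by -0.41 (SE 0.09, limma adjusted p = 0.0031), with pcDNA arrays from 5.48 through 5.99 to 6.53 and Rab25 arrays from 4.78 through 5.66 to 5.94. Its lowest pcDNA array was again FBS in experiment 1, at 5.48, and its lowest Rab25 array was TGF beta in experiment 1, at 4.78.

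H2BC5 differed by -0.40 (SE 0.09), from a pcDNA median of 9.53 (8.94 to 9.94) to a Rab25 median of 9.13 (8.70 to 9.52). H2BC21, on chromosome 1, differed by -0.44 (SE 0.15, limma adjusted p = 0.042), with widely spread arrays of 7.71 to 9.33 in pcDNA and 7.27 to 8.95 in Rab25 cells. H2BC9 differed by -0.37 (SE 0.09), with 6.98 to 7.69 in pcDNA and 6.28 to 7.33 in Rab25 cells. The ranges of all 3 H2B genes overlapped.

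H4C11 was lower by less, at -0.26 (SE 0.06, limma adjusted p = 0.0026), with pcDNA arrays from 6.91 through 7.20 to 7.27 and Rab25 arrays from 6.70 through 6.91 to 7.07. The pcDNA IGF array of experiment 1, at 6.91, and a starved pcDNA array of experiment 2, at 7.06, lay inside the Rab25 range. H2BC6 differed by -0.26 (SE 0.07), H2BC8 by -0.19 (SE 0.07), H3C8 by -0.17 (SE 0.05) and H2BC12, the brightest of the histone genes, by -0.14 (SE 0.04). H2BC12 had 11.41 to 11.81 in pcDNA and 11.16 to 11.77 in Rab25 cells. The ranges were 7.51 to 7.95 and 7.24 to 7.77 for H2BC6, 5.33 to 5.78 and 5.00 to 5.65 for H2BC8, and 5.75 to 6.34 and 5.68 to 6.10 for H3C8, so that each overlapped.

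**Figure D2:**
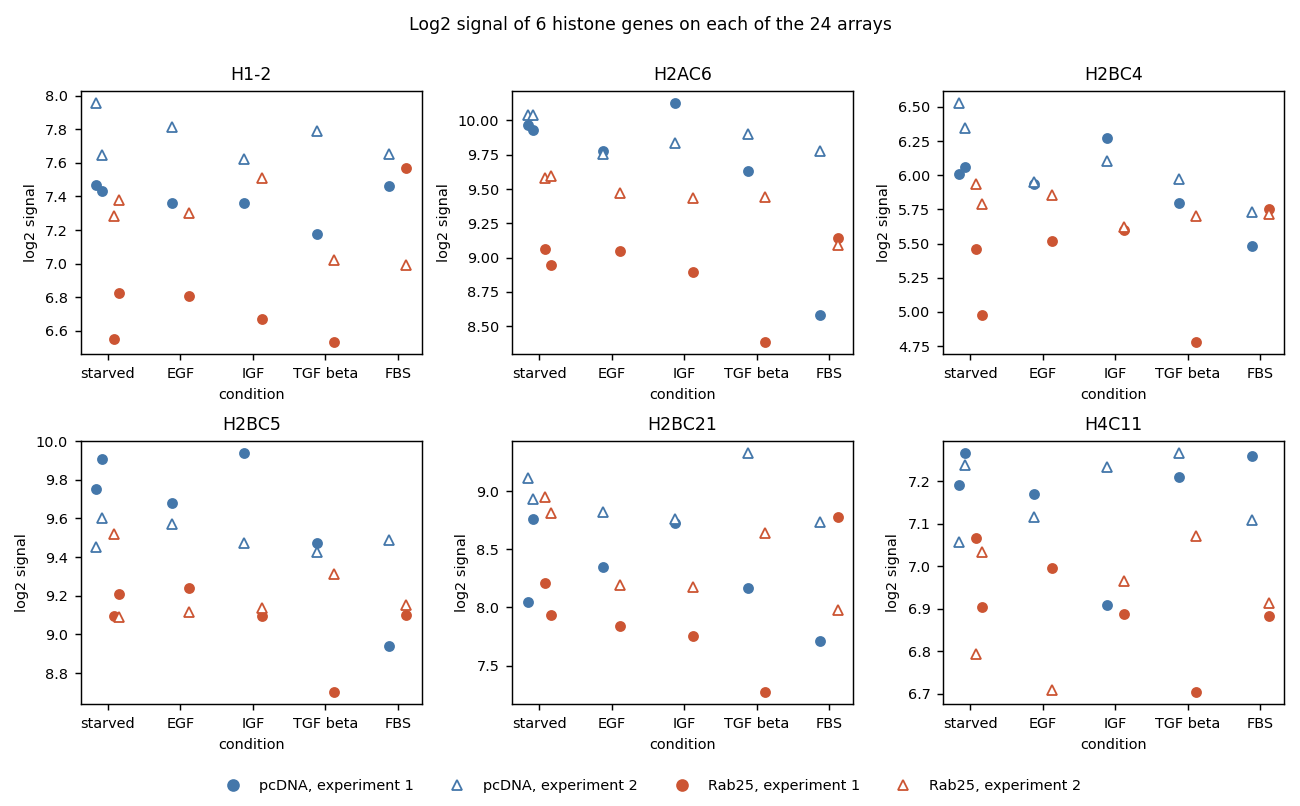
Log2 signal (vertical axis) is plotted for 6 histone genes on each of the 24 arrays by condition (horizontal axis), pcDNA in blue and Rab25 in red, with filled circles for experiment 1 and open triangles for experiment 2. For H2AC6 every Rab25 array is at 9.59 or below, and pcDNA FBS array 1 at 8.58 is the only pcDNA array under 9.63.

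The 44 other histone genes had line differences from -0.20 to 0.07 that did not pass the test. Closest to it were H2BC7 (-0.18, SE 0.07, limma adjusted p = 0.064) and H2BC10 (-0.10, SE 0.04, limma adjusted p = 0.065). H2AC18, an H2A gene on chromosome 1, had -0.19 (SE 0.10, limma adjusted p = 0.18), with 9.58 to 10.88 in pcDNA and 9.83 to 10.81 in Rab25 cells. H4C3, bright at 11.08, had -0.07 (SE 0.08), and H2AC25 had -0.04 (SE 0.12). The remaining H1 genes, H1-1, H1-3, H1-4, H1-5 and the testis gene H1-6, lay between -0.14 and 0.07. The 10 other H3 genes, H3-4, H3C1, H3C2, H3C3, H3C4, H3C6, H3C7, H3C10, H3C11 and H3C12, lay between -0.08 and 0.05. The other H4 genes, H4C1, H4C2, H4C4, H4C5, H4C6, H4C7, H4C8, H4C9, H4C13 and H4C14, lay between -0.20 and 0.05. In the H2A family H2AC4, H2AC8, H2AC11, H2AC13, H2AC14, H2AC15, H2AC16 and H2AC17 lay between -0.09 and -0.01, and in the H2B family H2BC3, H2BC11, H2BC13, H2BC14, H2BC15 and H2BC17 lay between -0.08 and 0.04.

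By position, 8 of the 31 measured genes of the chromosome 6 cluster from H1-1 to H4C8 were lower, 1 of 4 from H2BC11 to H4C9 (H2BC12) and 1 of 15 from H2BC13 to H2BC17 (H4C11). On chromosome 1 it was 1 of 3 from H4C14 to H2BC21 (H2BC21) and 0 of 2 from H3-4 to H2AC25. Among all genes 15.5% were lower, and no difference between the clusters was tested. Histone genes of a family are near copies of one another, and 15 of the 55 probe sets carry a suffix, _s_at or _x_at, that marks probes shared by several transcripts. Of these 15, 8 were lower between the lines, against 16.8% of all genes read by such sets. Of the 40 genes read by a set with the plain suffix _at, 3 were lower (H1-2, H2BC4 and H2BC12), against 14.6% of all such genes. How far signal of close relatives enters the values of H2AC6, H2BC5, H2BC6, H2BC8, H2BC9, H2BC21, H3C8 and H4C11 was not tested.

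Other probe sets were available for 3 of the genes. The second set of H2BC5 gave -0.19 (SE 0.06, limma adjusted p = 0.045) where the main set gave -0.40. The 2 further sets of H2AC18 gave -0.29 (SE 0.11, limma adjusted p = 0.081) and -0.02 (SE 0.06), and the second set of H4C8 gave 0.00 (SE 0.05) beside -0.12 (SE 0.07).

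Within matched sets of 1 condition and 1 experiment, H4C11 was lower in Rab25 cells in all 10 sets, by 0.02 to 0.51, as were 9.97% of all genes. H1-2, H2AC6, H2AC18, H2BC4, H2BC5, H2BC6 and H2BC21 were lower in 9 of 10, and in each of these genes the exception was FBS in experiment 1. There H2BC21 was 1.07 higher on the log2 scale, H2AC18 0.80 higher, H2AC6 0.56, H2BC4 0.27, H2BC5 0.16, H1-2 0.11 and H2BC6 0.07 higher. That set holds Rab25 FBS array 1, with its markers of other cells, and pcDNA FBS array 1, which was the lowest pcDNA array for H2AC6 (8.58), H2BC4 (5.48), H2BC5 (8.94), H2BC21 (7.71) and H2AC18 (9.58). H2BC9 and H3C8 were lower in 9 of 10 as well, with H2BC9 higher in IGF of experiment 1 (0.19) and H3C8 in EGF of experiment 1 (0.04). For all genes the share lower in 9 of 10 was not counted.

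**Figure D3:**
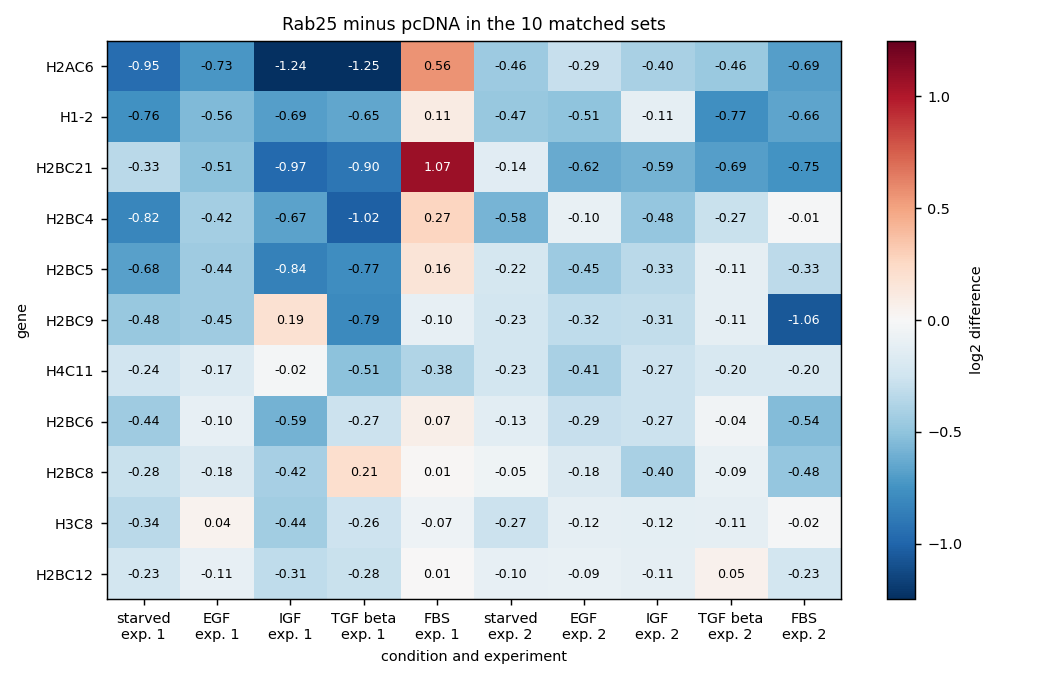
Each cell gives the log2 difference, Rab25 minus pcDNA, of 1 of the 11 histone genes called between the lines (rows, largest difference at the top) in 1 of the 10 matched sets of condition and experiment (columns); blue is lower and red higher in Rab25 cells. The column of FBS in experiment 1 holds the largest positive value, 1.07 for H2BC21, and the row of H4C11 is below 0 in all 10 sets.

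Without the FBS arrays, a choice made after seeing the data, 8 histone genes were lower in all 8 remaining sets, against 12.6% of all genes, and 0 were higher in all 8. They were H1-2, H2AC6, H2AC18, H2BC4, H2BC5, H2BC6, H2BC21 and H4C11. H2AC6 differed by at least 0.29 in each of these sets and by up to 1.25. In experiment 1 all 5 Rab25 arrays then lay below all 5 pcDNA arrays for H1-2, H2AC6, H2AC18, H2BC4, H2BC5, H2BC6 and H2BC7, 7 genes against a background of 8.79%. In experiment 2 this held for H1-2, H2AC6, H2BC4 and H3C8, 4 genes against 9.05%. H1-2, H2AC6 and H2BC4 did so in both experiments, but the share of all genes that did so in both was not counted. With the FBS arrays kept it held for 0 histone genes in experiment 1 (background 2.44%) and for H1-2 and H2AC6 in experiment 2 (background 7.14%).

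Without the Rab25 FBS arrays the lines were compared over the other conditions, so the pcDNA FBS arrays left this comparison as well. This gave 14 histone genes lower and 0 higher, against 14.8% of all genes lower. Of the 11 genes above 10 were among them, all but H2BC8, and H2AC18 (-0.29), H2BC7 (-0.19), H2BC10 (-0.11) and H4C8 (-0.21) were added. The differences of H2AC6 (-0.72, SE 0.12), H1-2 (-0.56, SE 0.07), H2BC4 (-0.54, SE 0.10), H2BC5 (-0.48, SE 0.10) and H2BC21 (-0.60, SE 0.12) were then larger. As a measure of RNA integrity, the actin control probe sets had a smaller 3′ minus 5′ signal on the Rab25 array in 8 of 10 matched sets (mean difference -0.10 on the log2 scale), and the GAPDH sets in 1 of 10. Its part in the line differences was not tested.

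With each pcDNA and Rab25 array left out in turn, and under each alternative that could be run for them, H1-2, H2AC6, H2BC4, H2BC6 and H4C11 stayed below the threshold between the lines. H2BC5 missed it in experiment 2 alone (limma adjusted p = 0.053) and H2BC9 without the experiment term (limma adjusted p = 0.065). H2BC12 missed it without pcDNA IGF array 1 and under 4 of 11 alternatives, which were no experiment term, quantile normalization, centring and experiment 2 alone. H3C8 missed it without either that array or Rab25 EGF array 2 and under 3 of 10 alternatives (no experiment term, centring, experiment 2 alone). H2BC21 missed it when any single one of 17 arrays was left out and under 2 of 11 alternatives (no experiment term, experiment 1 alone). H2BC8 missed it for any of 15 arrays and under 6 of 10 alternatives, both scalings and the fit without the Rab25 FBS arrays included. Without pcDNA IGF array 1 the count was 7 in place of 11.

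In starved cells alone, where each line had 4 arrays, H2AC6, H2BC4, H1-2 and H3C8 were lower in Rab25 cells and H2BC17 was higher. That is 4 of 55 lower and 1 of 55 higher, against 9.24% and 5.56% of all genes. H2AC6 was at 9.97, 9.93, 10.04 and 10.04 in pcDNA cells and at 9.06, 8.95, 9.58 and 9.59 in Rab25 cells. All 4 pcDNA arrays lay above all 4 Rab25 arrays, and the gap was wider in experiment 1, given first in each line, than in experiment 2. The difference was -0.70 (SE 0.19, limma adjusted p = 0.018).

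H2BC4 was at 6.01, 6.06, 6.53 and 6.35 in starved pcDNA cells and at 5.46, 4.98, 5.94 and 5.79 in starved Rab25 cells, again without overlap. It differed by -0.70 (SE 0.15, limma adjusted p = 0.0051). H1-2 was at 7.47, 7.43, 7.96 and 7.65 against 6.55, 6.83, 7.28 and 7.38, and differed by -0.62 (SE 0.16, limma adjusted p = 0.015). In both genes the Rab25 arrays of experiment 1 were the lowest.

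H3C8 differed by -0.30 (SE 0.08, limma adjusted p = 0.019). H2BC17 differed by 0.30 (SE 0.09, limma adjusted p = 0.046), from 5.16 to 5.50 in pcDNA cells to 5.47 to 5.76 in Rab25 cells, a difference at a low signal that was not called over all conditions (0.04, SE 0.06). Leaving out 1 array at a time gave 2 to 7 called genes. H2BC17 lost its call without any single one of 14 arrays. The count was 2 without pcDNA starved array 1-2 (H1-2 and H2BC4) or Rab25 starved array 1-1 (H2AC6 and H2BC4) and 3 without Rab25 starved array 1-2.

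The growth factors EGF, IGF and TGF beta were compared with starved cells over both lines, and none of these comparisons called a histone gene. For EGF 0 of 11940 genes passed limma's test (background 0%), with 6 histone genes and 811 genes at an unadjusted p under 0.05. The lowest p among them was that of H1-4, a linker histone gene, at -0.17 (SE 0.05, limma adjusted p = 0.52). For IGF 0 histone genes passed, against 1.53% of all genes lower and 1.17% higher (2.71% in all), with 1 histone gene and 1901 of all genes at an unadjusted p under 0.05. For TGF beta 0 passed, against 0.754% lower and 0.846% higher (1.6% in all), with 3 histone genes and 1253 of all genes at an unadjusted p under 0.05, among the former H3C6 (-0.20, SE 0.07, limma adjusted p = 0.23) and H2BC4 (-0.33, SE 0.13, limma adjusted p = 0.36). The median differences of the histone genes were -0.04 with EGF, 0.01 with IGF and -0.06 with TGF beta, and those of all genes 0.00, 0.00 and -0.02. Within pcDNA cells 0 histone genes passed for EGF and IGF (background 0%) and for TGF beta (0.201% of all genes higher and 0.0754% lower, 0.276% in all). At an unadjusted p under 0.05 there was 1 histone gene in each, beside 325, 793 and 1009 of all genes. Within Rab25 cells 0 passed for EGF (0.00838% lower, the only call), IGF (0.377% higher and 0.394% lower, 0.771% in all) and TGF beta (0.285% higher and 0.209% lower, 0.494% in all). There 4, 3 and 6 histone genes had an unadjusted p under 0.05, beside 927, 1496 and 1030 of all genes.

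With FBS 2 of 55 histone genes were lower and 0 were higher, against 10.8% lower and 6.43% higher among all genes (17.2% in all). H3C6, an H3 gene at a low signal (5.26 to 5.80 over all arrays), was 0.30 lower than in starved cells (SE 0.07, limma adjusted p = 0.0079), and its differences were -0.22 and -0.38 in pcDNA cells and -0.19 and -0.41 in Rab25 cells, in experiments 1 and 2. H2AC6 was 0.50 lower (SE 0.16, limma adjusted p = 0.046), but its differences were -1.37 and -0.26 in pcDNA cells and 0.14 and -0.49 in Rab25 cells. The call for H2AC6 thus rested on pcDNA FBS array 1, and without that array it was lost. It was also lost without any of 14 other arrays in turn.

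Without the Rab25 FBS arrays the comparison with FBS became that of pcDNA cells alone. In that fit H2AC6 differed by -0.82 (SE 0.22, limma adjusted p = 0.030) and H2BC4 by -0.63 (SE 0.18, limma adjusted p = 0.039). H3C6 was not called (-0.30, SE 0.10, limma adjusted p = 0.064). In Rab25 cells alone H4C13 (-0.25, SE 0.07, limma adjusted p = 0.043) and H1-6 (-0.27, SE 0.08, limma adjusted p = 0.044) were lower with FBS, against 5.08% of all genes lower and 2.64% higher (7.72% in all), and these rest on the 2 arrays with markers of other cells. H4C13 was at 4.91 and 4.84 on them and at 5.06 or above in starved Rab25 cells, and H1-6 at 5.01 and 5.12 against 5.25 to 5.42. The comparison in pcDNA cells alone gave the same differences with all arrays in the fit. There H2AC6 was lower (-0.82, SE 0.23, limma adjusted p = 0.043), against 4.44% of all genes lower and 2.31% higher (6.75% in all). H2BC4 had -0.63 (SE 0.19, limma adjusted p = 0.054). Leaving out 1 array at a time gave 1 to 6 called genes, with 6 without pcDNA FBS array 2, 4 without Rab25 FBS array 2 and 1 without pcDNA FBS array 1 and without each of 13 further arrays.

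The responses to EGF, IGF, TGF beta and FBS did not differ between the lines past the threshold for any of the 55 histone genes. Of all genes 0 differed in their response to EGF, IGF or TGF beta (background 0%) and 0.209% in their response to FBS. For the FBS response 7 histone genes and 1315 of all genes had an unadjusted p under 0.05, and none of the 7 passed after adjustment. The lowest p were those of H1-4 (-0.33, SE 0.10, limma adjusted p = 0.23) and H2BC4 (0.82, SE 0.26, limma adjusted p = 0.23). In experiment 1 the FBS response of H2AC6 was 1.51 higher on the log2 scale in Rab25 than in pcDNA cells and that of H2AC18 1.25 higher. These values rest on 1 FBS array per line, Rab25 FBS array 1, with its markers of other cells, and pcDNA FBS array 1, the lowest pcDNA array for both genes, and are given as a description with no test.

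Starved cells were also compared between the experiments over both lines. In experiment 2 starved cells 8 of 55 histone genes were higher and 2 lower than in experiment 1, against 14.8% of all genes higher and 16.6% lower. After centring each array on its median, 11 were higher and 0 lower. The higher genes were H1-2, H2AC11, H2AC18, H2AC25, H2BC4, H2BC9, H2BC12 and H2BC21, and the lower ones were H4C5 and H2AC8. The median difference was 0.07 for the histone genes and 0.01 for all genes. As a description, 6 of the 11 brighter histone genes were higher, with a median of 0.36, against 23.21% of all genes above the same level. The experiment is the only batch in the labels, and exposure, day and culture cannot be told apart within it.

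H2BC21 rose by 0.71 (SE 0.22, limma adjusted p = 0.025), H2AC18 by 0.57 (SE 0.15), H2BC4 by 0.52 (SE 0.13), H2AC25 by 0.51 (SE 0.13), H1-2 and H2BC9 by 0.50 each (SE 0.13 and 0.15) and H2BC12 by 0.26 (SE 0.07, limma adjusted p = 0.0090). H2AC18 was at 10.39 and 10.45 in pcDNA and 9.96 and 10.00 in Rab25 cells of experiment 1, and at 10.88, 10.74, 10.81 and 10.64 in experiment 2, so that the experiments did not overlap. Its further probe sets gave 0.505 (SE 0.16, limma adjusted p = 0.031) and, at a lower mean signal of 5.59, -0.003 (SE 0.10). H2AC11 differed by 0.19 (SE 0.06, limma adjusted p = 0.024), from 5.55, 5.49, 5.47 and 5.49 in experiment 1 to 5.62, 5.77, 5.60 and 5.80 in experiment 2, without overlap at a low signal. H4C5 differed by -0.25 (SE 0.08, limma adjusted p = 0.033), from 6.22, 6.04, 6.08 and 6.41 to 5.95, 5.90, 5.86 and 6.03, again without overlap. H2AC8 differed by -0.28 (SE 0.09, limma adjusted p = 0.038), from 5.68, 5.72, 5.93 and 5.99 to 5.60, 5.51, 5.50 and 5.59. Leaving out 1 array at a time gave 6 to 11 called genes, with 6 without Rab25 starved array 1-2. The actin 3′ minus 5′ signal was 0.98 ± 0.18 (SD, n = 4) in experiment 1 and 0.83 ± 0.11 (SD, n = 4) in experiment 2. That of GAPDH was 0.31 ± 0.09 (SD, n = 4) in experiment 1 and 0.30 ± 0.05 (SD, n = 4) in experiment 2.

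The genes around the histones were read from lists of S phase genes, histone chaperones, histone variants listed as replication-independent, and genes for transcription and processing of histone mRNA. Of 18 S phase genes 17 were higher in starved cells of experiment 2 and 0 lower, with a median of 0.93, with the lowest p in GINS2 (1.70), MCM5 (1.17), MCM2 (1.24) and MCM3 (1.38), parts of the replicative helicase. Of 17 transcription and processing genes 8 were higher and 3 lower, among them CCNE2, a cyclin that with CDK2 activates NPAT (2.01, SE 0.16), SLBP (0.65, SE 0.06), E2F1 (0.97, SE 0.09) and TUT7, which tags histone mRNA for decay (-0.64, SE 0.09). Of 19 chaperones 8 were higher and 1 lower, among them CHAF1B (1.11) and NASP (0.71), and of 9 variants 6 were higher and 0 lower, among them H2AX (0.85) and H2AZ1 (0.41). The medians of these 3 lists were 0.22 for transcription and processing, 0.13 for chaperones and 0.24 for variants. The S phase median was 1.13 in pcDNA and 0.75 in Rab25 cells, beside 0.04 and 0.08 for the 55 histone genes and 0.35 and 0.57 for the 11 brighter ones.

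With FBS 5 of the 18 S phase genes rose and 0 fell (median 0.40), among them GINS2 (0.86), FEN1 (0.42) and PCNA (0.40), whereas of the histone genes 0 rose. The S phase median was 0.96 in pcDNA and 0.65 in Rab25 cells of experiment 1, and 0.02 and -0.15 in experiment 2. The starved level of these genes was higher in experiment 2, and its part in the smaller medians was not tested. The median of the histone genes was -0.06 in pcDNA and 0.01 in Rab25 cells of experiment 1, and -0.01 and -0.18 in experiment 2. Of the 17 transcription and processing genes 5 rose, among them SLBP (0.42, SE 0.07), CCNE1 (0.57) and CCNE2 (0.83), and 2 fell, among them HINFP, which switches on H4 genes (-0.83, SE 0.08). Of 19 chaperones 6 rose, among them CHAF1B (0.68) and SSRP1 (0.25), and of 9 variants 2 rose, MACROH2A1 (0.23) and MACROH2A2 (0.27). Without the Rab25 FBS arrays, where FBS was compared in pcDNA cells alone, the counts were 4 higher for S phase genes, 4 higher and 2 lower for transcription and processing, 3 higher for chaperones and 3 higher for variants.

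**Figure D4:**
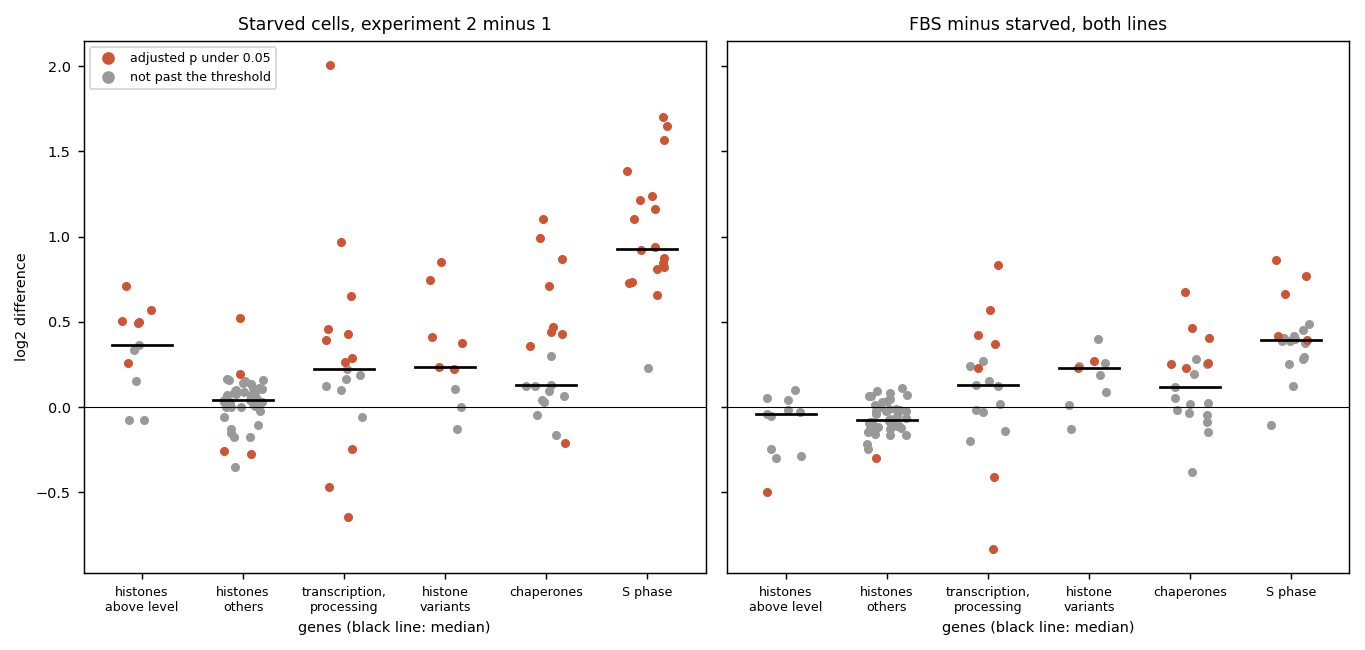
Log2 differences (vertical axis) of single genes are plotted for histone genes above and not above the level that 40% of genes lie under and for the 4 other lists, in starved cells of experiment 2 minus experiment 1 (left) and for FBS minus starved over both lines (right); red points have an adjusted p under 0.05 and black lines are medians. At the left the S phase median is 0.93 and that of the brighter histone genes 0.36; at the right 5 S phase genes are called above 0 and 0 histone genes are.

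Between the lines 3 of 18 S phase genes were higher in Rab25 cells, FEN1 (0.38), PCNA (0.25) and MCM6 (0.51), and RFC4 was lower (-0.30), with a list median of 0.12. NPAT itself was higher (0.45, SE 0.09, limma adjusted p = 0.0013), and NCBP2 (-0.23), SYMPK (-0.27) and TUT7 (-0.20) were lower, 2 higher and 3 lower of 17 (median 0.03). The chaperones SSRP1 (0.45), SUPT16H (0.17) and RBBP4 (0.13) were higher and 0 of 19 were lower (median 0.01). Among the variants MACROH2A2 (-0.64, SE 0.05) and the linker histone H1-10 (-0.63, SE 0.06) were lower and H2AX (0.47, SE 0.10) was higher (median 0.01). Without the Rab25 FBS arrays, and so with the FBS condition out of the comparison, the counts were 3 higher and 1 lower, 1 higher and 3 lower, 3 higher and 0 lower, and 1 higher and 2 lower.

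The difference between the experiments in the response itself was tested for each treatment. For EGF, IGF and TGF beta 0 histone genes differed, against 0.0838%, 1.42% and 0.402% of all genes. For FBS 3 histone genes had a lower response in experiment 2 and 0 a higher one, against 12.9% and 9.53% of all genes. The split changed with the scaling, to 3 lower and 2 higher after quantile normalization and to 2 lower and 3 higher after centring, where H4C9 was not called (-0.26, limma adjusted p = 0.20). Among all genes 1544 were lower and 1138 higher, then 1381 and 1494 after quantile normalization and 885 and 1674 after centring. The 3 genes were H2AC25 (-0.96, SE 0.22, limma adjusted p = 0.0079), H4C9 (-0.38, SE 0.10, limma adjusted p = 0.015) and H1-2 (-0.69, SE 0.22, limma adjusted p = 0.037). H1-2 with FBS differed from starved cells by 0.02 and -0.15 in pcDNA cells and by 0.88 and -0.34 in Rab25 cells, in experiments 1 and 2, and H2AC25 by 0.25, -0.18, 0.83 and -0.66. H4C9 differed by 0.06, -0.41, 0.06 and -0.23 in the same order. Over all arrays H2AC25 ran from 7.30 to 8.35 and H4C9 from 5.29 to 5.84. H1-2 and H2AC25 differed most between the Rab25 FBS arrays, and without these 2 arrays, or either one, 0 histone genes differed. Without pcDNA FBS array 1 or 2 it was 6.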

How the data were processed

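The values used are the log2 signals of each probe set as the authors deposited them, from 24 Affymetrix arrays. Per the submitters' processing notes MAS5 and RMA were used, and versions, roles and order are not given in the sources used here. Of 22930 probe sets 524 were controls, 19415 had a single gene symbol, 125 several and 2866 none. Genes were named from the platform annotation and RefSeq. The probe set of highest mean over 24 arrays stood for each of 11940 genes. All members were named; those past the threshold in any comparison were described with array values or group ranges, and of each other list at most the 4 genes of lowest p were named.

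One linear model per gene was fitted in R 4.3.3 by lmFit and eBayes of limma 3.58.1, with 10 groups and the experiment as a block. Every group had arrays in both experiments, which the labels name, and deviations of the 45 pairs of groups correlated at a median r of 0.66 (0.09 to 0.86). Residual degrees of freedom were 13 and prior 3.51, and 9 with treatment by experiment terms, used for contrasts of experiments. In each contrast p was adjusted by Benjamini and Hochberg's method across the 11940 genes, and the threshold was 0.05. Errors of differences are SE. The fit was tested on simulated data. Alternatives are given in the closing section. The number of arrays limits the precision. The members, lists and tests were chosen with earlier results of these data known.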

Additional observations from a re-analysis of the deposited data

Results flagged for a closer look

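Among 38 groups of 4 starved arrays tested, from the 19 histone genes called in a comparison over both lines, between lines or between experiments, 1 had an array apart from the others. H2BC8 was at 5.13 in Rab25 starved array 1-1 of experiment 1, a gap of 0.83 of the group's range to the nearest other array. Chance gives such a gap in about 1 in 20 groups when the 4 arrays are alike. Each of these groups held arrays of both experiments, which differed, so that rate may not hold here. The change in the FBS response from experiment 1 to experiment 2 passed limma's test for H1-2 (-0.69), H2AC25 (-0.96) and H4C9 (-0.38). Exposure was 8 h and 24 h by the treatment protocol but 24 h in either by the source names, so the treatment may not have been the same. All 3 calls were lost without either Rab25 FBS array.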

How the results depend on the processing

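For histone genes called over both lines, between lines or between experiments, no called difference changed sign in any alternative run for it. Uncalled differences could change sign, as that of H4C4 between the lines did (0.05, and -0.01 without the Rab25 FBS arrays). Without the replicate block the genes called numbered 6 for the lines over all conditions (main 11), 1 in starved cells (main 5) and 1 with FBS (main 2). Without the lowest 40% of genes they were 3 in starved cells, 1 with FBS and 6 between the experiments (main 10). In starved cells array weights gave 13, experiment 2 alone 3, and treatment by experiment terms 8. For IGF experiment 1 alone gave 1 (H2AC18) and experiment 2 alone 1 (H2BC21), against 0, and for TGF beta treatment by experiment terms gave 1. With FBS array weights gave 0 and each experiment alone 6, and the line difference of the FBS response gave 2 in experiment 1 alone. The experiment difference of the FBS response gave 5 after quantile normalization (3 lower, 2 higher), 5 after centring (2 lower, 3 higher), 0 with array weights and 0 without the Rab25 FBS arrays (main 3, all lower). Without all FBS arrays, chosen after seeing the data, genes lower in every matched set were 8 in place of 1, and genes below in every array 7 in place of 0 in experiment 1 and 4 in place of 2 in experiment 2. Leaving out 1 array in turn gave 7 to 15 for the lines, 2 to 7 in starved cells, 1 to 6 with FBS, 0 to 1 for the line difference of the FBS response, 6 to 11 between experiments, 0 to 6 for the experiment difference of the FBS response, and 0 to 0 for the other results. The line difference of the FBS response could not be fitted without both Rab25 FBS arrays. Most counts above are given without the share of all genes called in the same fit. A changed count can therefore not be read as a change of the histone genes alone. Of all genes called between the lines 62.94% were lower, 50.76% after quantile normalization and 45.38% after centring. The number of all genes called lower fell from 1853 to 1473 and 1258. That of histone genes fell from 11 to 9 and 8, with 0 higher each time. Signal near background limits the 38 genes with a mean under 6.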
